A study of Mus musculus with 39 samples.

Results

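The RNAs described here encode 34 proteins of sterol and fatty acid synthesis, chosen by name from the mevalonate and sterol pathway, the fatty acid pathway and the regulators of both. All 34 were present in the tables of both gradients, which share 13230 genes, and all 34 were among the 11754 genes with a mean TPM (a share of the RNA in a library that is corrected for transcript length and scaled to a fixed total) of at least 1. By textbook knowledge of their proteins they were divided into 12 cytosolic enzymes (7 of the sterol branch and 5 of the fatty acid branch), 21 proteins of the endoplasmic reticulum (ER) membrane (11 of sterol synthesis, 5 fatty acid desaturases and elongases, and 5 regulators) and 1 enzyme of the outer mitochondrial membrane. Peroxisomes have also been described as a site of some of the mevalonate enzymes counted here as cytosolic.

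Sterol and fatty acid synthesis both start from cytosolic acetyl-CoA and cross from the cytosol to the ER. Soluble enzymes build farnesyl diphosphate and palmitate, and enzymes in or on the ER membrane turn these into cholesterol and into desaturated or elongated fatty acids. The transcription factors that control the genes, Srebf1 and Srebf2, are themselves made as ER membrane precursors that Scap escorts to the Golgi and that Insig1 and Insig2 retain in the ER. In liver these pathways supply lipoprotein, membrane and bile acid synthesis. RNAs that encode membrane or secreted proteins are commonly translated by ribosomes on the ER, and RNAs of cytosolic proteins by free ribosomes.

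The question was how these RNAs sediment, and whether those of cytosolic and of ER membrane proteins differ. Livers of 2 wild-type FVB female mice of unstated age, with no treatment or added allele, were homogenized with beads in the absence of detergent. After removal of nuclei, each lysate was spun through its own sucrose gradient, and RNA from single fractions, depleted of ribosomal RNA, was sequenced as stranded libraries. Gradient 1 gave 17 libraries (fractions 4 to 19 and 21) and gradient 2 gave 22 (fractions 3 to 24), numbered from light to dense, with 1 library per fraction. Replicates are therefore the 2 gradients, 1 mouse each. Positions were compared as zones of 4 fractions: light (fractions 4 to 7), middle (fractions 10 to 13) and dense (fractions 16 to 19). The mean of log2(TPM + 1) in a zone of a gradient was the unit of the tests, so each zone has 8 libraries and n = 2 means.

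The TPM of each library summed to nearly the same total (998099 to 999202), and the deposited values carry no read counts, so depth is unknown. The median gene changed by −0.43 from the light to the dense zone on the log2(TPM + 1) scale, and all changes below are to be read beside that value. Each marker list of a liver cell type, summed over its genes, was lower in the dense than in the light zone, and no listed marker in the tables was at 0 in all zone libraries. The summed hepatocyte markers (6 of 6 genes in both tables) ran from 28371 to 60847 TPM in the light zone and from 9119 to 21900 in the dense zone. Kupffer cell markers (6 of 6) ran from 121 to 178 against 42.9 to 56.0, sinusoidal endothelial markers (6 of 6, Lyve1 at 0 in some libraries) from 49.5 to 96.2 against 28.2 to 44.3, stellate markers (5 of 6) from 31.6 to 78.6 against 9.23 to 20.8, and erythroid markers (3 of 5, Hba-a2 at 0 in some libraries) from 258 to 496 against 66.4 to 106. Single markers had a lower mean in the dense than in the light zone for 4 of 6 hepatocyte, 6 of 6 Kupffer cell, 6 of 6 sinusoidal endothelial, 4 of 5 stellate and 2 of 3 erythroid genes. The part of other cell types in the profiles of the members was not tested.

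Of the 12 cytosolic members, 8 rose from the light to the dense zone, none fell and 4 did not pass the test (limma, adjusted p under 0.05). Of the 21 ER membrane members, 1 rose, 8 fell and 12 did not pass. Leaving out the light zone mean of either gradient gave 4 ER membrane falls, and leaving out the dense zone mean of gradient 2 gave 16. The 1 ER membrane rise went to 0 without the light zone mean of either gradient or the dense zone mean of gradient 2, to 2 without the middle zone mean of gradient 1 and to 3 without the dense zone mean of gradient 1. The cytosolic rises were 5 without the light zone mean of gradient 1. Among all genes tested, 22.3% rose and 39.6% fell, so the 8 falls of 21 are near the share of all genes and are not a result about the ER membrane members. The median change was 1.07 for the cytosolic members (range −0.40 to 2.35, with Idi1 negative) and −1.14 for the ER membrane members (range −2.93 to 1.07), against −0.43 for all genes, on the log2(TPM + 1) scale. All 8 dense libraries lay above all 8 light libraries for 8 cytosolic and 0 ER membrane members, against 16.9% of all genes. All 8 dense libraries lay below all 8 light libraries for 0 cytosolic and 7 ER membrane members, against 28.9% of all genes, again near the share of all genes for the ER membrane members. After quantile normalization, which moved the genes that rose and fell from 2616 and 4658 to 3586 and 3503, 6 cytosolic members rose and 6 ER membrane members fell, with none in the other direction. The gradients pair the zones by mouse. With the gradient as a block, the counts were 10 risen and 1 fallen cytosolic members, and 3 risen and 14 fallen ER membrane members, where 30.5% of all genes rose and 50% fell.

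**Figure D1:**
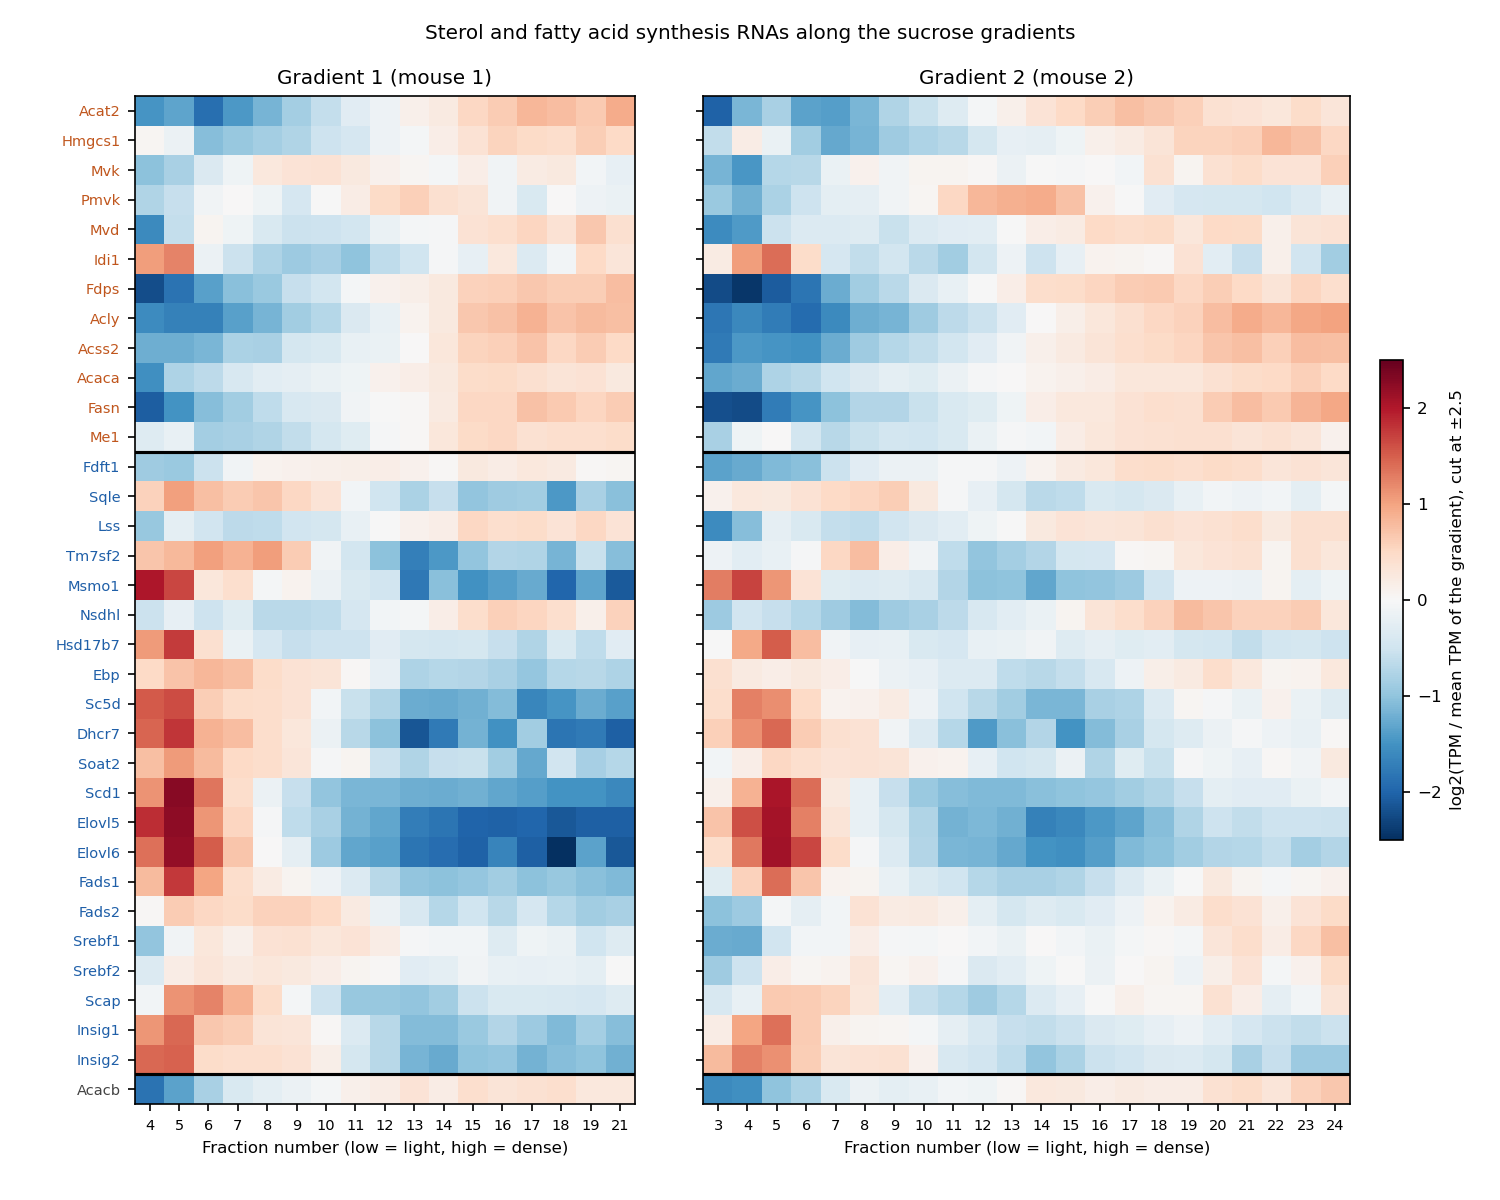
Heatmap of the 34 RNAs (rows, in pathway order) across the fractions of gradient 1 (left) and gradient 2 (right), from light to dense. Color is log2 of TPM over the mean TPM of that gene in that gradient, cut at 2.5 in either direction, and horizontal lines separate 12 cytosolic members (top, orange names), 21 ER membrane members (blue names) and Acacb. Most blue rows are reddest at fractions 4 to 6, and most orange rows are reddest from fraction 15 on.

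The cytosolic sterol enzymes make farnesyl diphosphate from acetyl-CoA in a series of soluble steps. Of the 7 RNAs, 4 rose from the light to the dense zone (Acat2, Hmgcs1, Mvd and Fdps), where 22.3% of all genes rose. Fdps, farnesyl diphosphate synthase at the end of this series, had the highest level and the largest change. Its TPM ran from 86.8 to 252 in the light zone (median 148), from 293 to 670 in the middle zone (median 455) and from 604 to 943 in the dense zone (median 749). The light libraries lay below all others, and the middle and dense zones overlapped. Zone means were 138, 390 and 619 TPM in gradient 1 and 168, 562 and 896 TPM in gradient 2 for the light, middle and dense zones. The rise from light to dense was 2.35 ± 0.27 (standard error, log2 scale, adjusted p = 0.00107, limma).

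Acat2, the cytosolic acetoacetyl-CoA thiolase that opens the pathway, was next in size of change. It went from a median of 54.5 TPM (35.4 to 84.2) in the light zone to 225 TPM (202 to 251) in the dense zone, with no overlap. The change was 2.02 ± 0.22 (adjusted p = 8.77e-04, limma). Hmgcs1, HMG-CoA synthase, was the second most abundant RNA of this branch. In gradient 1 its zones had means of 241, 273 and 472 TPM and in gradient 2 of 387, 363 and 644 TPM. It rose by 0.94 ± 0.30 (adjusted p = 0.0343, limma), while its light libraries, from 157 to 589 TPM, overlapped the dense ones, from 446 to 760 TPM. Its highest light libraries were those of fraction 4, with 338 TPM in gradient 1 and 589 TPM in gradient 2.

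Mvk and Pmvk are the kinases, and Mvd the decarboxylase, of the mevalonate steps. Mvd went from a median of 20.3 TPM in the light zone to 36.3 in the dense zone and rose by 1.02 ± 0.35 (adjusted p = 0.0462, limma). Mvk had zone means of 17.7, 29.2 and 27.1 TPM in gradient 1 and 32.5, 52.9 and 56.5 TPM in gradient 2, a change of 0.73 ± 0.48 (adjusted p = 0.230, and 0.00186 with the block). Pmvk was highest near the center of each gradient, at fraction 13 of gradient 1 and fraction 14 of gradient 2. The zones had means of 75.04, 117 and 84.9 TPM in gradient 1 and 93.4, 222 and 133 TPM in gradient 2, and its light to dense change was 0.37 ± 0.36 (adjusted p = 0.407).

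Idi1, isopentenyl diphosphate isomerase, was the cytosolic member with a negative change. It was highest at fraction 5 in both gradients, at 326 TPM in gradient 1 and 530 TPM in gradient 2. The zones had means of 207, 82.9 and 149 TPM in gradient 1 and 343, 141 and 223 TPM in gradient 2, so the middle zone was the lowest in each. The light libraries ran from 94.1 to 530 TPM and contained the whole range of the dense libraries, 108 to 259 TPM. The light to dense change was −0.40 ± 0.39 (adjusted p = 0.402, and 0.0143 with the block), close to the median of all genes. Its protein holds no hydrophobic stretch by the measure given below.

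All 5 RNAs of the cytosolic fatty acid branch had their 8 dense libraries above their 8 light ones, as did 16.9% of all genes. Fasn, fatty acid synthase, went from a median of 126 TPM (68.9 to 190) in the light zone to 290 (224 to 359) in the middle zone and 474 (413 to 521) in the dense zone. Fasn means by zone were 116, 268 and 441 TPM in gradient 1 and 132, 308 and 500.0 TPM in gradient 2. The rise of 1.98 ± 0.17 (adjusted p = 4.62e-04, limma) was 1.98 in each gradient. Acly, which cleaves citrate to supply acetyl-CoA, had the largest change of the branch, 2.25 ± 0.28 (adjusted p = 0.00130, limma). Acly means by zone were 67.9, 168 and 346 TPM in gradient 1 and 102, 225 and 458 TPM in gradient 2.

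Acaca, the cytosolic acetyl-CoA carboxylase, rose by 1.13 ± 0.15 (adjusted p = 0.00164, limma). Me1, malic enzyme and a source of NADPH, had the smallest change of the branch, 0.83 ± 0.22 (adjusted p = 0.0202, limma). Me1 means by zone were 221, 280 and 428 TPM in gradient 1 and 205, 210 and 322 TPM in gradient 2, so it was level between the light and middle zones of gradient 2. Acss2, acetyl-CoA synthetase, had a change of 1.76 ± 0.63, and missed the threshold (adjusted p = 0.0511, and 9.58e-05 with the block). Its level in gradient 2 was above that in gradient 1 in every zone (35.03, 65.6 and 114 TPM against 75.5, 158 and 272 TPM), while its change was 1.68 in gradient 1 and 1.84 in gradient 2.

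Acacb makes malonyl-CoA at the outer membrane of mitochondria and is the counterpart of Acaca there. It rose by 1.24 ± 0.21 (adjusted p = 0.00393, limma), from a median of 27.7 TPM (16.3 to 45.2) in the light zone to 65.4 (57.6 to 78.8) in the dense zone, with no overlap. Acaca and Acacb thus had changes of 1.13 and 1.24.

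**Figure D2:**
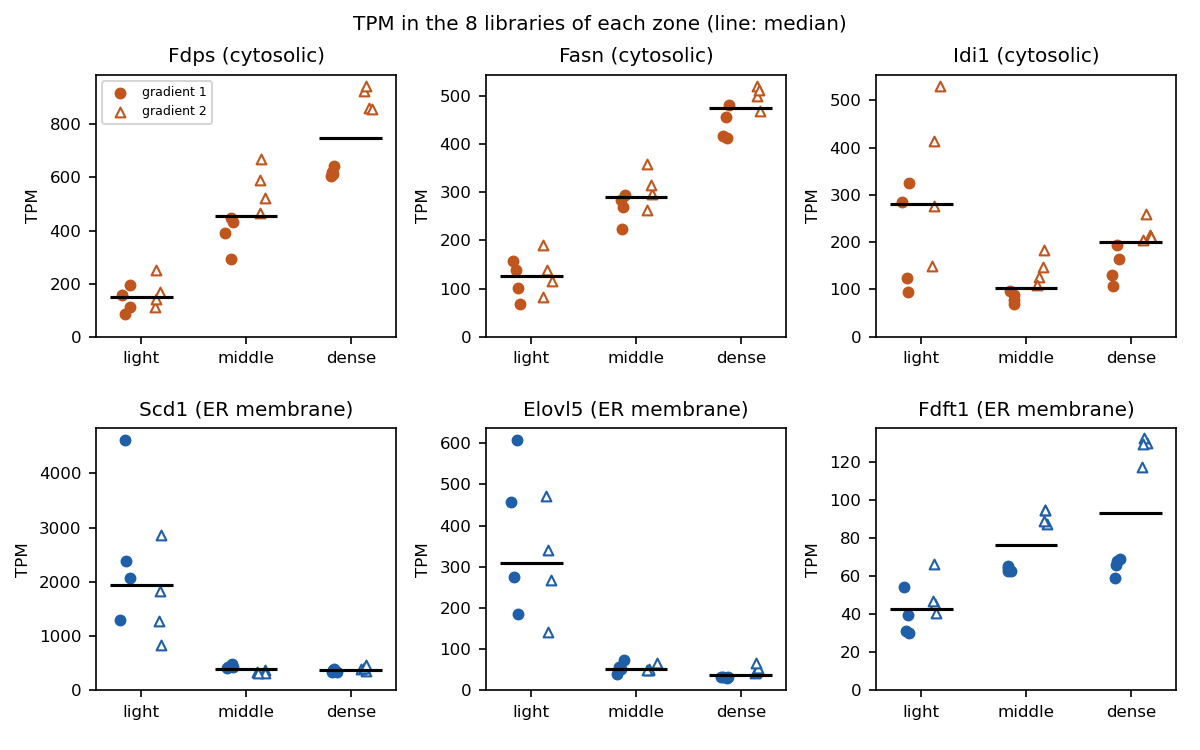
TPM (vertical axis, from 0, scaled per gene) of 3 cytosolic members (top) and 3 ER membrane members (bottom) in the 8 libraries of the light, middle and dense zones (horizontal axis). Filled circles are gradient 1, open triangles gradient 2, and lines medians of 8 libraries. Fdps and Fasn climb without overlap between light and dense, Scd1 and Elovl5 drop after the light zone, Idi1 is lowest in the middle zone and Fdft1 is higher in the dense than in the light zone of each gradient.

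The largest falls of the 34 were those of Elovl5, Elovl6 and Scd1, ER membrane enzymes of fatty acid metabolism. Of the 5 enzymes in this class, 4 fell from the light to the dense zone (Scd1, Elovl5, Elovl6 and Fads1), where 39.6% of all genes fell. Scd1, stearoyl-CoA desaturase, was the most abundant RNA of all 34. It ran from 823 to 4619 TPM in the light zone (median 1945), from 322 to 482 in the middle zone and from 336 to 465 in the dense zone. The light libraries lay above all others, and the middle and dense zones overlapped. Scd1 means by zone were 2592, 438 and 357 TPM in gradient 1 and 1694, 335 and 402 TPM in gradient 2. The change was −2.32 ± 0.26 (adjusted p = 9.64e-04, limma).

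Elovl5, an elongase of polyunsaturated fatty acids, had the largest fall of the 34. Its median went from 308 TPM (140 to 608) in the light zone to 51.7 (38.7 to 72.6) in the middle zone and 36.7 (29.3 to 66.6) in the dense zone. By zone, Elovl5 had means of 382, 55.0 and 31.2 TPM in gradient 1 and 305, 53.7 and 51.4 TPM in gradient 2. The change of −2.93 ± 0.26 (adjusted p = 5.04e-04, limma) was lower than that of most genes, with 2.00% of all genes below it. Elovl6, which elongates palmitate, was a less abundant RNA with a like profile. It went from a median of 34.7 TPM to 5.16 TPM and fell by 2.62 ± 0.56 (adjusted p = 0.00905, limma).

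The desaturases Fads1 and Fads2 act at different steps of the synthesis of polyunsaturated fatty acids, and their genes lie close together on chromosome 19. Fads1 zone means were 509, 170 and 123 TPM in gradient 1 and 532, 207 and 261 TPM in gradient 2, a change of −1.46 ± 0.36 (adjusted p = 0.0143, limma). Fads2 had zone means of 288, 227 and 135 TPM in gradient 1 and 256, 297 and 304 TPM in gradient 2. Its change was −1.07 in gradient 1 and 0.28 in gradient 2, a mean of −0.40 ± 0.39 (adjusted p = 0.405). Over the 17 shared fractions, Pearson's R between its profiles was 0.228, the lowest of the 34.

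The 11 ER membrane members of sterol synthesis were divided. Hsd17b7, Dhcr7 and Soat2 fell, Fdft1 rose, and 7 did not pass. Among all genes 39.6% fell and 22.3% rose, so these counts are not above the shares of all genes and are not a result about this group. Sc5d, the sterol desaturase before the last step, was the most abundant. Sc5d means by zone were 146, 43.7 and 26.0 TPM in gradient 1 and 253, 99.6 and 106 TPM in gradient 2, and its change was −1.79 ± 0.73 (adjusted p = 0.0758, and 0.00234 with the block). Dhcr7, which makes cholesterol in the last step of this route, had the lowest change of the group. Its median went from 29.3 TPM (16.8 to 54.7) to 7.45 TPM (2.75 to 16.3) with no overlap, and it fell by 1.95 ± 0.62 (adjusted p = 0.0354, limma). Soat2, which esterifies cholesterol, fell by 1.10 ± 0.24 (adjusted p = 0.0102, limma). Hsd17b7, a ketosteroid reductase of the pathway, fell by 1.20 ± 0.38 (adjusted p = 0.0345, limma).

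Other RNAs of this group were higher in the light zone of each gradient without passing the test. Msmo1, the sterol methyl oxidase, had a change of −2.44 in gradient 1 and −1.32 in gradient 2 (adjusted p = 0.131, and 0.00199 with the block). Sqle, squalene epoxidase, had changes of −1.62 and −0.66 (adjusted p = 0.167, and 0.00658 with the block). Ebp, the sterol isomerase, and Tm7sf2, a sterol reductase, were the members of this group with a profile that differed most between gradients, with a Pearson's R of 0.479 and 0.541. Ebp zone means were 112, 63.6 and 39.8 TPM in gradient 1 and 111, 74.6 and 95.7 TPM in gradient 2. Tm7sf2 zone means were 54.2, 18.4 and 17.4 TPM in gradient 1 and 43.8, 28.3 and 43.0 TPM in gradient 2. In both RNAs the dense zone mean of gradient 2 was more than 2 times that of gradient 1. This was also so for Sqle, Sc5d, Msmo1 (8.02 TPM in gradient 1 and 48.5 in gradient 2) and Dhcr7 (3.62 and 13.1). Neither Ebp nor Tm7sf2 passed the test (adjusted p = 0.109 for Ebp and 0.168 for Tm7sf2, limma), and Ebp fell with the block (adjusted p = 0.0456).

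Fdft1, Lss and Nsdhl had a profile on the other side, with a higher dense than light zone in each gradient. Fdft1, squalene synthase, takes farnesyl diphosphate from the cytosol at the ER and is the first enzyme committed to sterols. It ran from 30.2 to 66.6 TPM in the light zone (median 42.7) and from 58.9 to 133 TPM in the dense zone (median 93.2), with a small overlap. Fdft1 means by zone were 38.8, 63.8 and 65.4 TPM in gradient 1 and 49.7, 91.4 and 127 TPM in gradient 2. The rise was 1.07 ± 0.36 (adjusted p = 0.0444, limma), and it missed the threshold when TPM was rescaled without the 50 most abundant genes or the libraries were quantile normalized (adjusted p = 0.0623 and 0.0502, limma). It also missed the threshold without the light zone mean of gradient 1 (0.89, adjusted p = 0.206, limma), that of gradient 2 (1.25, adjusted p = 0.105, limma) or the dense zone mean of gradient 2 (0.59, adjusted p = 0.1405, limma). Lss, lanosterol synthase, had zone means of 23.8, 32.4 and 47.5 TPM in gradient 1 and 38.3, 48.8 and 70.1 TPM in gradient 2, a change of 0.94 ± 0.34 (adjusted p = 0.0532, and 4.86e-04 with the block). Nsdhl, a sterol dehydrogenase, had zone means of 42.9, 46.4 and 75.5 TPM in gradient 1 and 61.8, 68.1 and 142 TPM in gradient 2, a change of 0.99 ± 0.37 (adjusted p = 0.0601, and 0.00131 with the block). In the order of the pathway, Fdps, Fdft1, Sqle and Lss catalyze steps that follow each other, with changes of 2.35, 1.07, −1.14 and 0.94.

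The regulators were divided as well. Insig2, which retains Scap in the ER, fell by 1.61 ± 0.23 (adjusted p = 0.00217, limma). Insig2 means by zone were 184, 65.1 and 43.3 TPM in gradient 1 and 121, 52.5 and 49.0 TPM in gradient 2, and its light and dense libraries did not overlap. Insig1, its more abundant paralog, had zone means of 346, 126 and 93.9 TPM in gradient 1 and 615, 276 and 286 TPM in gradient 2, a change of −1.43 ± 0.64 (adjusted p = 0.0982, and 0.00162 with the block). Scap had a change of −0.75 ± 0.36 (adjusted p = 0.114, and 0.0178 with the block) and was lowest in the middle zone of both gradients.

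Srebf1 and Srebf2 had the smallest changes of the 34. Srebf1, the factor for fatty acid genes, had zone means of 76.7, 93.9 and 68.0 TPM in gradient 1 and 85.5, 108 and 108 TPM in gradient 2, and a change of 0.15 ± 0.25 (adjusted p = 0.630). Srebf2, the factor for sterol genes, had zone means of 23.0, 21.3 and 18.4 TPM in gradient 1 and 24.98, 23.4 and 24.8 TPM in gradient 2, and a change of −0.14 ± 0.21 (adjusted p = 0.577). For both RNAs the light, middle and dense libraries overlapped.

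**Figure D3:**
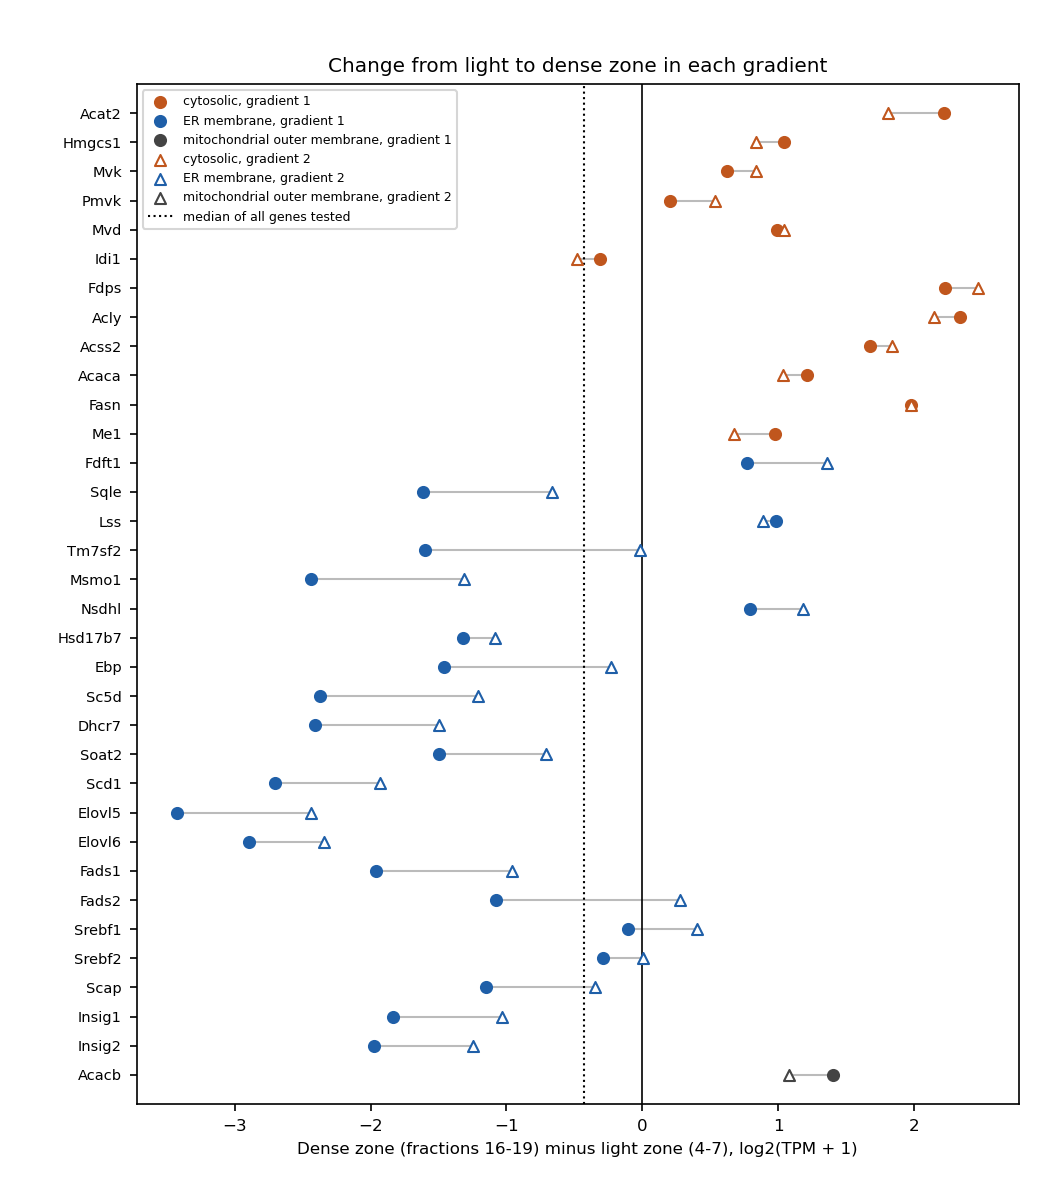
Change of each RNA from the light to the dense zone (horizontal axis, log2(TPM + 1) scale) in gradient 1 (filled circles) and gradient 2 (open triangles), with members in pathway order on the vertical axis. The dotted line is the median of all genes (−0.43). The cytosolic members (orange), Idi1 apart, lie right of 0 in both gradients, and 15 of the 21 ER membrane members (blue) lie left of 0 in both.

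The gradients agreed in direction for 12 of 12 cytosolic and 18 of 21 ER membrane members, against 92.003% of all genes. The size of the change differed between gradients on the ER side. The change was more positive in gradient 2 than in gradient 1 for 20 of 21 ER membrane members, by a median of 0.80, with Lss as the exception. For the cytosolic members it was so for 6 of 12 (median −0.08), and for 42.3% of all genes. The median change of the ER membrane members was −1.597 in gradient 1 and −0.71 in gradient 2, and that of the cytosolic members 1.13 and 1.04. With 2 gradients, no test of this difference was made.

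Across all fractions, the cytosolic members lay denser. The center of sedimentation, the mean fraction number weighted by TPM over the 17 fractions present in both gradients, had a median of 13.5 in gradient 1 and 13.4 in gradient 2 for cytosolic members. For ER membrane members it was 9.69 and 11.0, and for all genes 11.3 in each. The most extreme members were Acly, with centers of 14.8 and 14.9, and Elovl5, with 7.28 and 8.39. Centers above the median of all genes were found for 12 and 11 of 12 cytosolic members and for 5 and 9 of 21 ER membrane members in gradients 1 and 2.

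The highest fraction told the groups apart in the same way. The highest TPM fell at fraction 6 or lighter for 16 ER membrane members in gradient 1 and 12 in gradient 2, against 38.4% and 36.7% of all genes, and for 1 cytosolic member, Idi1, in each. It fell at fraction 15 or denser for 9 and 10 cytosolic members and for 3 and 7 ER membrane members, against 27.2% and 25.3% of all genes. In both gradients the median profile of the ER membrane members was above that of the cytosolic members up to fraction 10 and below it from fraction 11 on.

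**Figure D4:**
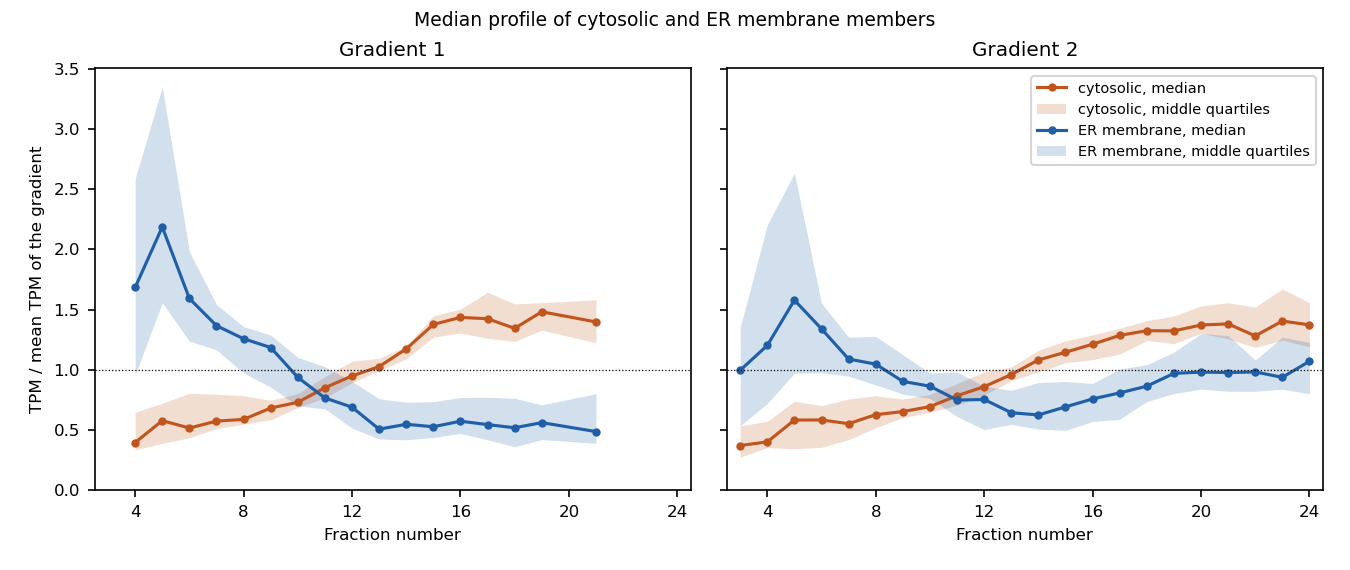
Median profile of the 12 cytosolic (orange) and 21 ER membrane (blue) members in gradient 1 and gradient 2, as TPM over the mean TPM of each gene in that gradient (vertical axis) by fraction number (horizontal axis). Shading spans the middle quartiles of the members, and fraction 20 of gradient 1 has no library. The curves cross between fractions 10 and 11 in both gradients, and the ER membrane curve of gradient 2 climbs again toward the dense end.

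The steps between zones were also compared. From the light to the middle zone, 5 cytosolic members rose and none fell, and 0 ER membrane members rose and 6 fell, where 23.5% of all genes rose and 24.1% fell. The median changes were 0.85 and −1.12 (with the block, 9 risen and 1 fallen cytosolic members, and 2 risen and 14 fallen ER membrane members, where 37.2% of all genes rose and 35% fell). Leaving out 1 zone mean gave 2 to 5 cytosolic rises and 3 to 12 ER membrane falls in this step. From the middle to the dense zone, 3 cytosolic members (Acat2, Acly and Fasn) rose and none fell, where 4.79% of all genes rose and 22.5% fell. Leaving out any 1 of the 6 zone means gave 0 or 1 cytosolic rises. None of the 21 ER membrane members passed in either direction, and their median change was −0.14, against 0.71 for the cytosolic members. With the block, 10 cytosolic members rose and 1 fell (Pmvk) in this step, and 2 ER membrane members rose (Lss and Nsdhl) and 0 fell, where 14.1% of all genes rose and 39.3% fell. With the gradients averaged, the median change of the ER membrane members lay mostly in the step from light to middle. That of the cytosolic members lay in both steps. The median change of all genes was 0.05 from light to middle and −0.28 from middle to dense. In this second step the gradients differed for the ER membrane members. Their summed TPM went from 1553 to 1214 in gradient 1 and from 1931 to 2257 in gradient 2.

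Summed levels gave the same picture with the weight on abundant RNAs. The 12 cytosolic members together took 1230 TPM in the light zone, 1891 in the middle and 3038 in the dense zone of gradient 1, and 1677, 2481 and 3886 TPM in gradient 2. The 21 ER membrane members took 5085, 1553 and 1214 TPM in gradient 1 and 4617, 1931 and 2257 TPM in gradient 2. Scd1 held much of the light zone sum. Without it, the other 20 took 2494, 1115 and 857 TPM in gradient 1 and 2923, 1596 and 1855 TPM in gradient 2, still highest in the light zone.

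Gradient 2 also has the densest fractions, 22 to 24. There, 15 of the 21 ER membrane members had a higher mean TPM than in fractions 16 to 19, with a median ratio of 1.19, against 36.1% of all genes and a median of 0.915. Of the cytosolic members 6 of 12 were higher, with a median of 1.07. Scd1, at a ratio of 1.53, and Elovl5, at 1.51, were among those with the largest ratios, and Acly, at 1.40, and Fasn, at 1.37, led the cytosolic side. Fraction 3, the top library, was below the light zone mean for all 12 cytosolic members and for 19 of 21 ER membrane members, with Msmo1 and Ebp above it. This held for 89.4% of all genes tested, so the counts are near the share of all genes and are not a result about the members. No library of these fractions of gradient 1 was analysed here, so there is no replicate of either comparison.

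The encoded proteins were also described by their hydropathy. The division into cytosolic and ER membrane members rests on known membrane proteins, so a difference between the classes in this measure largely restates the division. Hydropathy (the Kyte-Doolittle scale, averaged over windows of 19 residues) was computed from the translated GENCODE M21 coding sequence of 1 principal transcript per gene. A hydrophobic stretch, defined as a window with a mean of at least 1.6, was found in 20 of 21 ER membrane members and in 4 of 12 cytosolic members (Mvk, Acss2, Acaca and Fasn), so the measure does not by itself tell soluble from membrane proteins. The coding sequences of the first stretch are given for the ER membrane members with the largest fall (Elovl5) and the highest level (Scd1) and for Nsdhl, which had a higher dense zone in both gradients. They are in the sense direction, 5′ to 3′, from GRCm38 (the mm10 assembly), with the 57 bases of the stretch in capitals and 9 bases on either side in lower case.
Elovl5: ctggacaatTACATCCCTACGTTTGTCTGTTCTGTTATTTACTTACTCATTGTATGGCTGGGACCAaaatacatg
Scd1: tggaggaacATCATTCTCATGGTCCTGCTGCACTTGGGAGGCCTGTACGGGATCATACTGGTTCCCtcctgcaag
Nsdhl: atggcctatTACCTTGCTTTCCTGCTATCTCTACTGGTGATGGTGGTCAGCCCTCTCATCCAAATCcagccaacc

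The Elovl5 run lies on chr9:77960892-77960966 (plus strand) and encodes residues 32 to 50 of 299 in capitals. The Scd1 run lies on chr19:44406506-44406580 (minus strand), residues 72 to 90 of 355. Both stretches are near the start of the protein. The Nsdhl run lies on chrX:72957387-72957461 (plus strand), residues 291 to 309 of 362, in the later part of the protein. All 3 runs are coding exon. In Fdft1 the first stretch began at residue 285 of 416, also in the later part. Lss, the third ER sterol enzyme with a higher dense zone, had no stretch, with a highest window of 1.54.

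The 3 members with opposite signs in the gradients were varied in this respect. The first stretch began at residue 478 of 1134 in Srebf1 and at residue 471 of 1130 in Srebf2, and at residue 133 of 444 in Fads2. Among those with a negative change in both gradients, the first stretch began between residue 19 (Tm7sf2) and residue 239 (Hsd17b7). Fads1 and Fads2 both had their first stretch at residue 133, with changes of −1.46 and −0.40. Msmo1 and Hsd17b7, with first stretches at residues 199 and 239 and 76 and 77 residues after them, had changes of −1.88 and −1.20. Across the 20 ER membrane members with a stretch, Spearman's rho between its start and the light to dense change was 0.382, and that between the residues after it and the change was 0.147. This is a description across genes that share libraries, and genes are not independent replicates. The rho with the number of stretches was −0.06 over 21 members. With coding length it was 0.523 over the 21 ER membrane and 0.455 over the 12 cytosolic members, so longer coding sequences went with a more positive change on both sides. Coding lengths were 675 to 3828 bases for ER membrane and 576 to 7512 bases for cytosolic members.

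**Figure D5:**
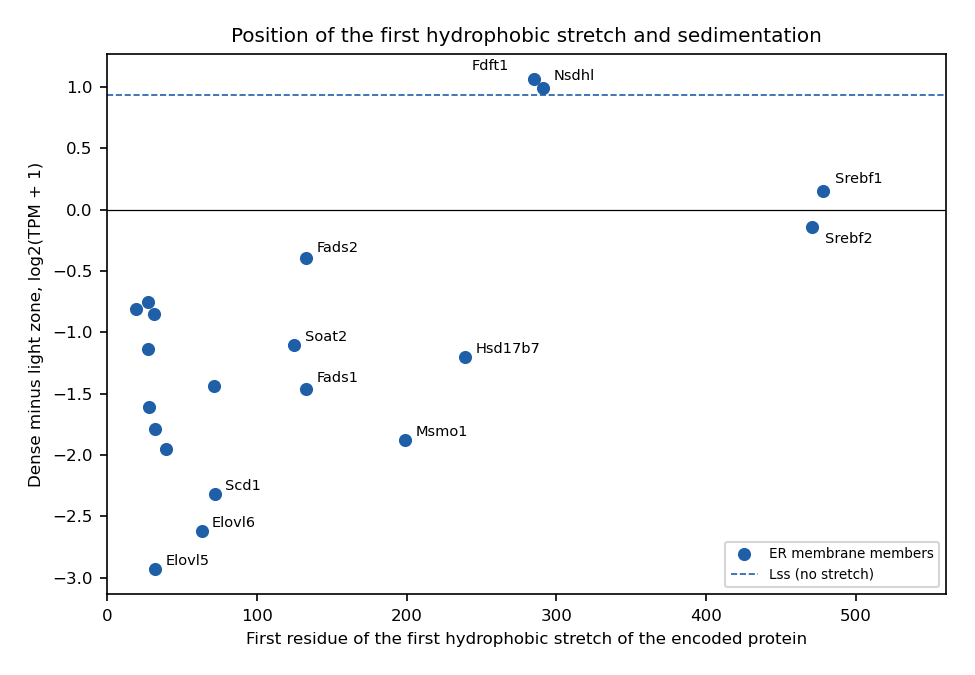
Light to dense change (vertical axis, log2(TPM + 1) scale) against the first residue of the first hydrophobic stretch of the encoded protein (horizontal axis), for the 20 ER membrane members with a stretch (blue). The dashed line is Lss, which has no stretch. Fdft1 and Nsdhl, with starts at residues 285 and 291, lie above 0, and the points with starts before residue 133 lie below 0.

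Other genes of the pathways, not among the 34, were counted in the same way. Of 25 further membrane proteins listed as ER or Golgi, of which Gpam and Acsl1 are also known from the outer mitochondrial membrane, 17 fell from the light to the dense zone, 3 rose and 5 did not pass, with a median of −1.38 (with the block, 21 fell and 3 rose). Among all genes 39.6% fell and 22.3% rose, and with the block 50% and 30.5%. The largest fall was that of Elovl2, a further elongase (−2.70 ± 0.27, adjusted p = 6.88e-04, limma). The largest rises were those of Gpam, an acyltransferase of glycerolipid synthesis (0.83 ± 0.23, adjusted p = 0.0242, limma), and Tecr, a reductase of fatty acid elongation (0.74 ± 0.23, adjusted p = 0.0351, limma). Over the 24 of these genes with a stretch, rho between its start and the change was 0.364.

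Of 13 further cytosolic or nuclear proteins, 4 rose, 4 fell and 5 did not pass, with a median of 0.53 (with the block, 8 rose and 4 fell), to be read against the same shares of all genes. The largest rises were those of Idh1 (1.86 ± 0.17, adjusted p = 5.36e-04, limma) and Pgd (1.78 ± 0.15, adjusted p = 4.79e-04, limma), cytosolic enzymes that supply NADPH. The largest falls were those of Ggps1, geranylgeranyl diphosphate synthase (−1.70 ± 0.19, adjusted p = 9.04e-04, limma), and Stard4, a soluble sterol carrier (−1.27 ± 0.26, adjusted p = 0.00759, limma). Ggps1, like Idi1, is a soluble isoprenoid enzyme, and both RNAs had a lower mean in the dense than in the light zone. As reference lists, all 12 RNAs of cytosolic carbohydrate enzymes rose (median 2.42), and of 12 RNAs of secreted plasma proteins 9 fell and none rose (median −1.77). The cytosolic members thus had a smaller median change than the carbohydrate enzymes, and the ER membrane members a smaller one than the secreted proteins. For the other ER or Golgi list and the secreted list, all 25 and all 12 RNAs had a more positive change in gradient 2 than in gradient 1, with medians of 0.76 and 1.51.

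Some members share sequence with other genes, and how the authors' pseudo-alignment divided such reads was not examined. Of the 31-base words of the transcript used here, 85.7% were also in a transcript of another gene for Fdps (most with Gm43738, annotated over it on the same strand), 59.9% for Acaca (Gm5182), 50.5% for Acat2 (Acat3), 35.3% for Me1 (Gm7049), 22.2% for Idi1 (Gm13502), 21.3% for Fdft1 (Gm6781) and 8.26% for Scd1 (Scd3). Values for these RNAs are uncertain to that extent. Of the 8 cytosolic members that rose, Acly, Fasn, Hmgcs1 and Mvd shared 0% of their words. The gene of Fdft1 (chromosome 14 of GRCm38, 63145150 to 63179578, minus strand) also overlaps Ctsb on the opposite strand. Fdps lies on chromosome 3 from 89093588 to 89101959 (minus strand), Fasn on chromosome 11 from 120805846 to 120824547 (minus strand), Scd1 on chromosome 19 from 44394455 to 44407879 (minus strand), Elovl5 on chromosome 9 from 77917364 to 77984519 (plus strand) and Idi1 on chromosome 13 from 8885501 to 8892451 (plus strand). Neither Fasn nor Scd1 nor Elovl5 overlaps another annotated gene.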

How the data were processed

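RNA-Seq of sucrose gradient fractions of mouse liver was analysed as TPM. The authors pseudo-aligned reads with Kallisto to an mm10 RefSeq index and deposited TPM per gene symbol, 1 table per gradient (13982 and 13634 genes). The Kallisto version, the use of strand and the way transcripts were summed to genes are not given in the sources used here. The submitters' processing notes also name bcl2fastq 2.16.0.10. All 39 value columns were matched to samples by their titles, and 0 were left over.

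TPM is a share of the RNA of a fraction, and equal RNA mass entered each library, so the values do not show how much RNA each fraction held. Without read counts no count model, counting interval or detection limit can be given, and errors are limma standard errors over zone means. Log2(TPM + 1) was averaged over 4 fractions per zone and gradient, and zones were compared in limma 3.58.1 (R 4.3.3, trend in eBayes, two-sided, Benjamini-Hochberg over the 11754 genes that averaged 1 TPM or more in the 24 zone libraries). Changes on this scale understate those of low RNAs. The 3 zones share 1 estimate of the spread, and the reported fit has no block. The zones of a gradient come from 1 mouse, so the gradient pairs them. Deviations of the gradients correlated across genes (r = 0.665 for light and middle, 0.540 for light and dense, 0.798 for middle and dense), and the fit with the gradient as a block is given beside results it changes. The limma step was tested on simulated data.

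The members, gene lists and comparisons were chosen with earlier results of these data known. All 34 members are accounted for. For each class, the zone values are given at least for the 3 RNAs of highest mean TPM and those with the largest and smallest change, and every RNA whose sign departs from its class is named. Of the other pathway genes, the 2 largest changes in each direction among those called are named, except for an item not reported here.

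Coordinates, coding sequences and shared 31-base words came from GENCODE M21 (GRCm38), not from the authors' index. Sequences were translated with Biopython 1.88 in place of a protein table. Python 3.11.15, pandas 2.3.3, NumPy 2.4.6 and matplotlib 3.10.9 were used. Alternatives were a pseudocount of 0.1, no filter or a mean TPM of at least 10, quantile normalization, TPM rescaled without the 50 most abundant genes, the block, inner fractions of each zone, and leaving out each zone mean in turn. Protein measurements were not used.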

Additional observations from a re-analysis of the deposited data

Results flagged for a closer look

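The light to dense change of 3 ER membrane members had opposite signs in the 2 gradients. The difference was not tested. For Fads2 the change was −1.07 in gradient 1 and 0.28 in gradient 2, a difference of 1.35 on the log2(TPM + 1) scale. For Srebf1 it was −0.11 and 0.40, a difference of 0.511, and for Srebf2 −0.29 and 0.01, a difference of 0.293.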

How the results depend on the processing

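With the gradient as a replicate block, which pairs the zones of a mouse, more members passed. From light to dense, 1 cytosolic member fell (Idi1) and 3 ER membrane members rose and 14 fell. From light to middle, 9 cytosolic members rose and 1 fell, and 2 ER membrane members rose and 14 fell. From middle to dense, 10 cytosolic members rose and 1 fell, and 2 ER membrane members rose. Over all genes the block moved the genes risen from middle to dense from 563 to 1661, those fallen from 2645 to 4614, and those risen from light to middle from 2762 to 4369. Quantile normalization moved the median light to dense change of all genes from −0.43 to −0.05 and the genes risen and fallen from 2616 and 4658 to 3586 and 3503, and from middle to dense from 563 and 2645 to 1225 and 1608. With it, or with TPM rescaled without the 50 most abundant genes, 0 ER membrane members rose from light to dense and 1 cytosolic member fell from light to middle, as 1 did with the inner 2 fractions of each zone.

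Leaving out 1 of the 6 zone means, where the lone remaining mean is assumed to vary like the others, moved counts as follows. From light to dense, 5 to 9 cytosolic members rose, 0 to 3 ER membrane members rose and 4 to 16 fell, with 5 cytosolic rises without the light zone of gradient 1, 16 ER membrane falls without the dense zone of gradient 2 and 4 without the light zone of either gradient. From light to middle, 2 to 5 cytosolic members rose and 0 to 1 fell, and 0 to 1 ER membrane members rose and 3 to 12 fell. The 2 cytosolic rises were without the light zone of gradient 1 or the middle zone of gradient 2, the 3 ER membrane falls without either light zone or the middle zone of gradient 1, and the 12 without either dense zone. From middle to dense, 0 to 1 cytosolic members rose and 0 to 1 ER membrane members rose, so the 3 cytosolic rises of that step rest on all 6 means.

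Of 442 values (34 members in 13 alternatives) from light to dense, 383 kept their direction and side of the threshold, 29 lost the call, 26 gained one and 4 changed sign, and 31 of 34 members kept their direction throughout. Srebf2 changed sign after quantile normalization (0.0892). Without 1 zone mean the range was −0.979 to 0.183 for Fads2, −0.184 to 0.481 for Srebf1 and −0.342 to 0.0628 for Srebf2. From light to middle 13 values changed sign and 29 of 34 members kept their direction. Hmgcs1 was at −0.0132 rescaled and −0.324 quantile normalized, Nsdhl at −0.0210 and −0.0640, and Me1 at −0.253 quantile normalized. Without 1 zone mean the range was −0.200 to 0.449 for Hmgcs1, −0.0411 to 0.673 for Mvd, −0.002 to 0.409 for Me1, −0.159 to 0.388 for Nsdhl and −0.266 to 0.133 for Fads2. The cause was not tested. The median center of ER membrane members minus that of cytosolic members was −3.78 fractions in gradient 1 and −2.41 in gradient 2. With log2(TPM + 1) in place of TPM as weights, which flattens profiles by construction, the differences were −0.921 and −0.616. Read depth is unknown, so its limit on these values cannot be given.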
